A study of Mus musculus with 6 samples.

Results

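Haematopoietic stem cells have no marker of their own and are recognised by a combination of surface proteins. In mouse marrow the stem cell factor receptor KIT and the small anchored protein SCA-1 set apart the primitive compartment, and the SLAM proteins CD150 and CD48 then separate stem cells from their progeny. EPCR, TIE2 and ESAM are further proteins enriched on stem cells, whereas CD34, FLT3 and CD27 are best known for rising as stem cells pass into multipotent progenitors. The genes for these 10 proteins, Kit, Ly6a (SCA-1), Slamf1 (CD150), Cd48, Procr (EPCR), Tek (TIE2), Esam, Cd34, Flt3 and Cd27, were chosen by symbol from the 55471 gene IDs of the deposited expression table, and each matched a single row.

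The libraries came from mice of genotype ETV6-RUNX1, which carry an inducible form of the leukaemia fusion gene ETV6-RUNX1. The 3 uninduced libraries are from mice with no listed treatment, and the 3 induced libraries are from mice fed doxycycline for 2 weeks. All 6 came from cells sorted as lineage-negative, KIT+, SCA-1+, CD48- and CD150+, so 4 of the 10 genes encode proteins that the gate itself used in both groups. The gate read protein at the surface and the libraries read RNA. The labels give no age, sex, promoter or pooling of mice, and no library from doxycycline-fed mice without the fusion was analysed here, so fusion and drug cannot be told apart. It is not stated that the libraries came from separate mice, and p-values then measure only the spread between these libraries.

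Induced cells held more Ly6a and Procr RNA, at 2.63 and 2.24 times the uninduced mean, and less Kit RNA, at 55.5% of it. Of the 10 genes 9 reached the minimum of a mean of 1 TPM (a transcript level scaled to the same total in each library, so a share of the library corrected for gene length) and were tested, and Cd48 did not. At an adjusted p under 0.05 (limma on log2(TPM + 1), Benjamini-Hochberg over 13470 genes) 2 were higher and 1 lower, where over all tested genes 11.5% were called, 1.29% higher and 10.2% lower. The Kit call depended on the scaling and on single libraries, as given beside its values, whereas the Ly6a and Procr calls passed in all 16 alternative settings tried.

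The scale itself was offset between the groups. Nuclear protein-coding genes held 26.6% to 32.9% of the TPM in uninduced and 20.5% to 23.2% in induced libraries, and the typical tested gene had a log2 change of -0.35 (median). The change of each tested marker is therefore also given after median-of-ratios scaling, which divides each library by its typical ratio to the average library and brought the median change to 0.0033. The depth of each library is unknown, since TPM keeps none. In bulk RNA, fewer cells of a type and less RNA per cell cannot be told apart.

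Sequence bears on how far the reads of each gene can be told from those of its relatives. Ly6a lies at chr15:74994877-74998031 (GRCm38, minus strand), among the Ly6 genes that arose by duplication. Of the 1297 different 50-base words in its annotated transcripts, 246, or 19.0%, also occur in transcripts of 4 other genes, most of them (195) in Ly6c1. The coding bases 10 to 109 of both genes are shown because they include the longest coding run shared with Ly6c1 (45 bases). This run is shorter than a 50-base word. The stretch shown therefore holds none of the 195 shared words, which lie elsewhere in the annotated transcripts. Positions count from the first base of the coding sequence in the GENCODE M21 transcripts, and capitals mark the 7 positions at which the sequences shown differ.
Ly6a: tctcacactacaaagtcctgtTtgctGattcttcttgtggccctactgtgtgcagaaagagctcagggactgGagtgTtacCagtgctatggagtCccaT
Ly6c1: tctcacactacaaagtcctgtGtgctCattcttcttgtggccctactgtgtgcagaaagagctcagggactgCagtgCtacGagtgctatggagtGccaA

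The Ly6a coding sequence of 405 bases was identical to that of Ly6i at 86.4% of aligned bases, to Ly6c2 at 83.6% and to Ly6c1 at 76.5%. Ly6a levels are uncertain to the extent that reads from stretches in common with other genes were shared out. Of the 4 genes that share words with it, Ly6c1 measured 0.587, 1.46 and 0.905 TPM without induction and 0, 5.37 and 1.29 TPM with it, Ly6c2 stayed at or under 1.29 TPM, Ly6i was listed at 0 in all 6, and the pseudogene Ly6a2 (I830127L07Rik in GENCODE M21, matched by its ID) was at 2.71 TPM in uninduced replicate 1, 2.43 TPM in induced replicate 1 and 0 in the rest. Kit, Cd48, Procr, Tek and Esam shared no such word with another gene, and the share was 3.31% for Cd27, 2.23% for Slamf1, 0.447% for Cd34 and 0.016% for Flt3. The Cd27 words all lay in Mir8113, a microRNA gene on the same strand within it that was at most at 0.494 TPM. Vamp1 overlaps Cd27 on the opposite strand and was at 3.20 to 6.87 TPM, and Gm26597 overlaps Flt3 likewise and was listed at 0 except in induced replicate 3 (1.75 TPM). It is not stated whether the counting used the strand, so reads of these overlaps cannot be told apart.

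The fusion contains the DNA-binding domain of RUNX1. ETV6 is a member of the ETS factor family, but ETS words were not taken as sites of the fusion. The 250 bases before the RefSeq start (build GRCm38.p6) were searched on both strands. The RUNX words were TGTGGT and TGCGGT, and the ETS words were AGGAAG and CGGAAG. These words do not overlap each other in the stretches found. The table used held 8 of the 10 genes (not Ly6a and Esam). A RUNX word stood before Cd48 and Flt3, where 18.6% of 32851 promoters of that length hold one. An ETS word stood before Kit, Slamf1, Procr and Cd34, where 39.2% of promoters hold one, and the GATA word AGATAA was in none of the 8, against 9.99% of promoters. Each word is shown in capitals with 12 bases on either side, on the strand of the gene, to place it relative to the genes whose levels follow.
Kit, chr5:75574753-75574782: gagagtgctaggAGGAAGaggatccagggt
Slamf1, chr1:171767071-171767100: cccggttgagacAGGAAGctggttcaggaa
Procr, chr2:155751120-155751149: ctcctcaagcctCGGAAGcaagcagcggga
Cd34, chr1:194938667-194938696: cgtacacagtggCTTCCTgccacacttaaa
Cd48, chr1:171681904-171681933: aatctcattccaTGTGGTgtgatggtagtg
Flt3, chr5:147400533-147400562: ttccccagccgaACCGCAcccagtctcccc

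These words are letters in a window and not measured binding. The ETS word was found before Procr and Cd34, whose means were higher in induced cells, and also before Kit and Slamf1, whose means were lower. The words in Cd34 and Flt3 are on the strand opposite to the gene. The Procr stretch lies past the GENCODE start of that gene, which is upstream of the RefSeq one.

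**Figure D1:**
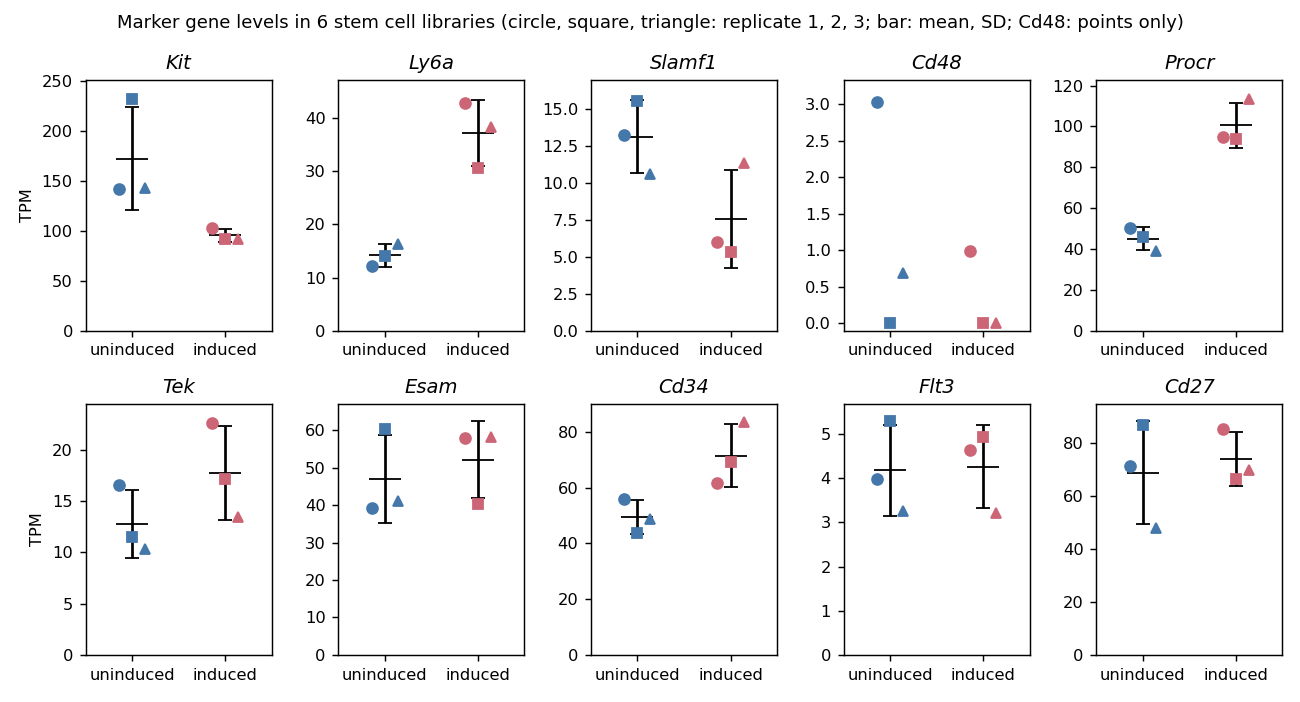
TPM of each of the 10 marker genes (vertical axes, starting at 0 except for a small margin in the Cd48 panel) in the 3 uninduced (blue) and 3 induced (red) libraries, with the mean and SD as a bar except for Cd48. The groups are apart for Ly6a, Procr and Cd34 (induced higher) and for Kit (induced lower), and overlap for the other genes.

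Among the genes of the sorting gate, Kit (ENSMUSG00000005672, chr5:75574916-75656722) encodes the receptor tyrosine kinase for stem cell factor. It measured 142, 232 and 143 TPM without induction and 103, 92.3 and 91.6 TPM with it. All induced libraries were below all uninduced ones, and uninduced replicate 2 stood well above the other two. The mean fell from 172 ± 52.0 to 95.7 ± 6.48 TPM (n = 3 per group, SD), which on the log2 scale is -0.81 with an SE of 0.21 (limma adjusted p 0.0354).

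After median-of-ratios scaling Kit no longer passed, since the change there was -0.40 (limma adjusted p 0.224), although the groups still did not overlap. It was also lost without uninduced replicate 2 (-0.57, limma adjusted p 0.0707) and without induced replicate 1, 2 or 3 (limma adjusted p 0.0777, 0.115 and 0.0943), where the change itself was -0.86, -0.78 and -0.78 and fewer libraries entered the fit. Over 16 alternative settings the adjusted p ran from 0.0267 to 0.257, and 6 of them kept the call.

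Ly6a (ENSMUSG00000075602) encodes SCA-1, which is held in the membrane by a lipid anchor and is widely used to define the stem cell compartment. It measured 12.1, 14 and 16.4 TPM without induction and 42.8, 30.6 and 38.4 TPM with it, so the lowest induced library was above the highest uninduced one. Its mean rose from 14.2 ± 2.15 to 37.3 ± 6.19 TPM (n = 3 per group, SD), which on the log2 scale is 1.33 with an SE of 0.23 (limma adjusted p 0.00694), and 1.72 after median-of-ratios scaling (limma adjusted p 0.00414). The log2 change was above that of 98.3% of tested genes. The call held in all 16 alternatives, with an adjusted p of 0.00186 to 0.0376.

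Slamf1 (ENSMUSG00000015316, chr1:171767127-171801184) encodes CD150, a self-binding receptor used as a positive stem cell marker. It measured 13.2, 15.5 and 10.6 TPM without induction and 5.98, 5.31 and 11.3 TPM with it. Induced replicate 3 lay inside the uninduced range and the other two induced libraries below it. The log2 change of -0.78 (95% interval -1.51 to -0.045, limma adjusted p 0.155) did not pass, nor did -0.41 after median-of-ratios scaling (limma adjusted p 0.471).

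Cd48 (ENSMUSG00000015355, chr1:171682009-171705258) encodes a lipid-anchored SLAM family protein, the negative marker of the gate, and lies 61869 bases before Slamf1 on the same strand. It measured 3.02, 0 and 0.690 TPM without induction and 0.991, 0 and 0 TPM with it. It was the lowest of the 10 genes in each group. Its mean over the 6 libraries was under the minimum, and no test was made on it.

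Of the stem cell markers outside the gate, Procr (ENSMUSG00000027611, chr2:155751117-155755471) encodes the endothelial protein C receptor EPCR. It measured 50.2, 45.9 and 39.0 TPM without induction and 95, 93.6 and 113 TPM with it. Every induced library held more Procr than every uninduced one, with little spread inside either group. The mean rose from 45.0 ± 5.62 to 101 ± 11.0 TPM (n = 3 per group, SD), which on the log2 scale is 1.15 with an SE of 0.18 (limma adjusted p 0.00491), and 1.55 after median-of-ratios scaling (limma adjusted p 0.000780). The call held in all 16 alternatives, with an adjusted p of 0.000232 to 0.0377.

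Tek (ENSMUSG00000006386, chr4:94739289-94874976) encodes TIE2, the angiopoietin receptor. It measured 16.6, 11.5 and 10.3 TPM without induction and 22.6, 17.1 and 13.5 TPM with it, with overlapping groups. The log2 change of 0.44 (95% interval -0.19 to 1.08, limma adjusted p 0.350) did not pass. After median-of-ratios scaling the groups no longer overlapped and the change was 0.82, which did not pass either (limma adjusted p 0.124).

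Esam (ENSMUSG00000001946, chr9:37528078-37538319) encodes a cell adhesion molecule of endothelial and stem cells. It measured 39.1, 60.4 and 41.2 TPM without induction and 58.0, 40.2 and 58.1 TPM with it. In each group replicate 2 stood apart, high in the uninduced and low in the induced group. The log2 change was 0.16 (95% interval -0.37 to 0.68, limma adjusted p 0.706), and 0.56 after median-of-ratios scaling (limma adjusted p 0.134).

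Among the genes linked to multipotent progenitors, Cd34 (ENSMUSG00000016494, chr1:194938819-194961279) encodes a sialomucin that adult mouse stem cells carry little of. It measured 55.9, 43.8 and 48.8 TPM without induction and 61.5, 69.3 and 83.6 TPM with it, without overlap. The log2 change of 0.52 (95% interval 0.092 to 0.94, limma adjusted p 0.110) did not pass on the deposited scale. Cd34 passed after median-of-ratios scaling, at 0.92 (limma adjusted p 0.0204), and in 3 of the 16 alternatives in all, each of them a rescaling of the libraries.

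Flt3 (ENSMUSG00000042817, chr5:147330741-147400489) encodes the receptor for FLT3 ligand, a mark of lymphoid-primed progenitors. It measured 3.97, 5.30 and 3.25 TPM without induction and 4.64, 4.94 and 3.20 TPM with it, with nearly the same range. The log2 change was 0.027 with a wide 95% interval of -0.74 to 0.80 (limma adjusted p 0.970), so no direction can be given. After median-of-ratios scaling it was 0.36 (limma adjusted p 0.582).

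Cd27 (ENSMUSG00000030336, chr6:125232622-125237010) encodes a receptor of the tumour necrosis factor receptor family. It measured 71.3, 86.6 and 48.0 TPM without induction and 85.4, 66.5 and 69.9 TPM with it, all within the uninduced range. The log2 change was 0.14 (95% interval -0.38 to 0.65, limma adjusted p 0.740), and 0.54 after median-of-ratios scaling (limma adjusted p 0.131).

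**Figure D2:**
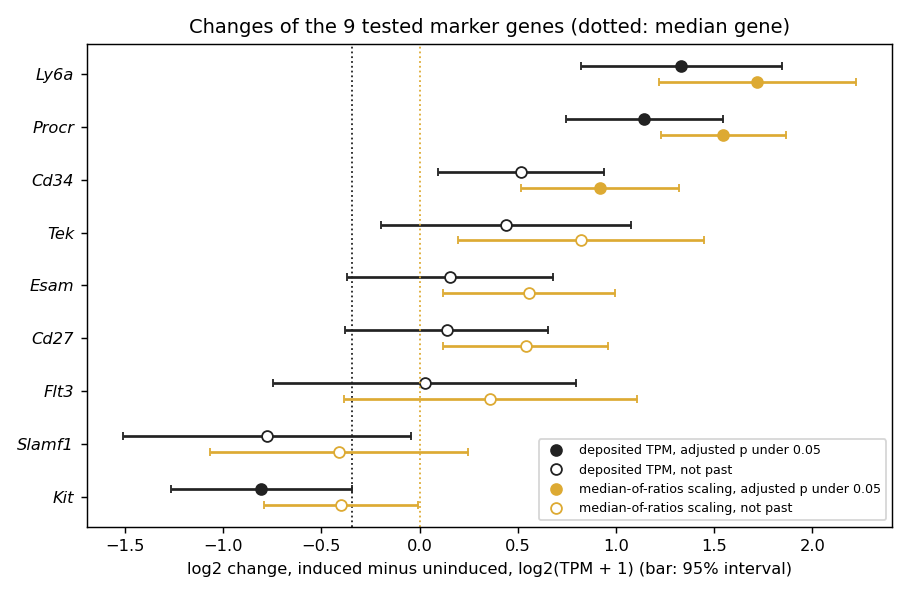
Log2 change (induced minus uninduced, log2(TPM + 1), horizontal axis) with its 95% interval for the 9 tested marker genes on the deposited scale (black) and after median-of-ratios scaling (yellow), and the median of all tested genes on each scale (dotted). Ly6a and Procr are past an adjusted p of 0.05 on both scales, Kit on the deposited scale and Cd34 after scaling.

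The 9 tested genes had a median log2 change of 0.16 on the deposited scale, beside -0.35 over all tested genes, and 7 of the 9 lay above the median gene. The exceptions were Kit and Slamf1, which lay 0.46 and 0.43 log2 units below it. On the deposited scale the groups did not overlap for 4 of the 9 (33.1% of all tested genes), 3 in the higher direction (4.83% of all) and 1 in the lower (28.2% of all). After median-of-ratios scaling the groups did not overlap for 7 (27.9% of all), 6 in the higher direction (13.6% of all) and Kit in the lower (14.3% of all). On that scale 3 were called (5.98% of all), 3 higher (2.88% of all) and 0 lower (3.1% of all). At an unadjusted limma p under 0.05 there were 5 of the 9 on the deposited scale (27.9% of all tested genes) and 7 after scaling (21.8% of all).

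The order of the levels changed at its top. In uninduced cells Kit was the highest of the 10, with no library overlapping the next gene, Cd27. Cd27, Cd34, Esam and Procr followed with overlapping neighbours (means 68.7, 49.5, 46.9 and 45.0 TPM), and then Ly6a, Slamf1 and Tek, also overlapping (14.2, 13.1 and 12.8 TPM). In induced cells Procr and Kit overlapped at the top (101 and 95.7 TPM), followed by Cd27 and Cd34 (73.9 and 71.5 TPM) and by Esam and Ly6a (52.1 and 37.3 TPM), each pair overlapping. Tek (17.7 TPM), Slamf1 (7.53 TPM) and Flt3 (4.26 TPM) came below, without overlap between neighbours. Among tested nuclear protein-coding genes, the Ly6a mean was at or above 56.5% of genes in uninduced and 90.2% in induced cells, and the Procr mean at or above 88.8% and 97.7%.

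Because a scaling factor cancels within a library, each gene was also expressed as a share of the summed TPM of the 10 genes. That sum was 361 to 516 TPM without and 420 to 483 TPM with induction, so the groups overlapped. Kit made up 34.9%, 45.1% and 39.5% of it in the uninduced and 21.5%, 22.0% and 19.0% in the induced libraries. Procr made up 12.3%, 8.90% and 10.8% in the uninduced and 19.8%, 22.3% and 23.5% in the induced libraries. The groups did not overlap in either share.

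Ly6a took 2.71% to 4.54% of the panel in uninduced and 7.29% to 8.92% in induced cells, and Slamf1 2.94% to 3.24% and 1.24% to 2.34%. Both were apart between the groups. Cd27 held 15.9% ± 2.24 and 16.0% ± 1.66 (SD, n = 3 each), and Esam 10.9% ± 1.15 and 11.2% ± 1.44 (SD, n = 3 each), with overlapping groups. The shares describe the panel, add up to a whole and were not tested.

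**Figure D3:**
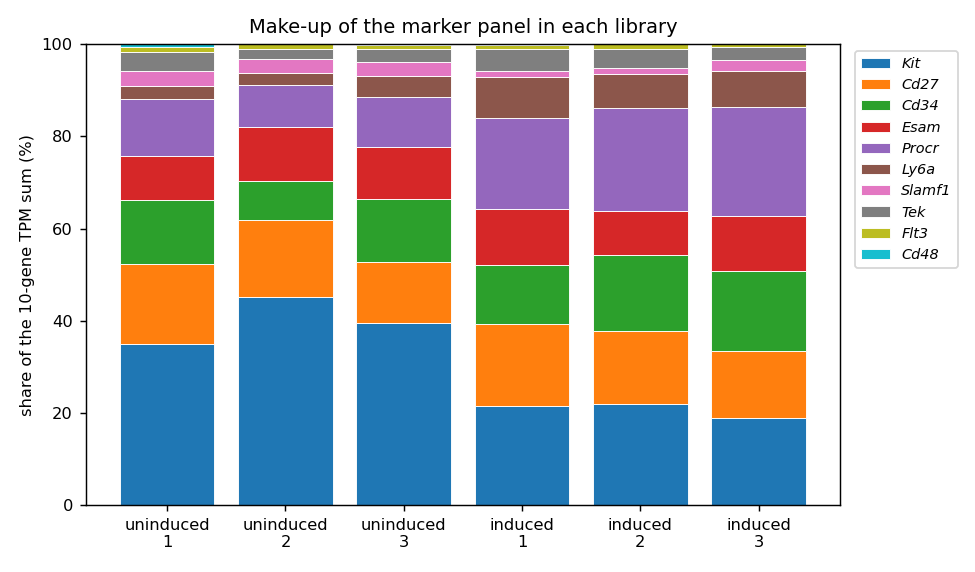
Share of each marker gene in the summed TPM of the 10 genes (vertical axis, percent) in each library. The Kit segment is 34.9% to 45.1% in uninduced and 19.0% to 22.0% in induced libraries, and the Procr segment 8.90% to 12.3% and 19.8% to 23.5%.

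Ratios between pairs of the genes within a library, which likewise do not depend on scaling, were compared for 8 pairs with an exact two-sided permutation test. With 3 libraries against 3 this test cannot give a p below 0.1, so no pair could pass. The Ly6a to Kit ratio was 0.0849, 0.0602 and 0.115 in the uninduced and 0.415, 0.331 and 0.419 in the induced libraries, a 4.61-fold difference of the geometric means. The Procr to Kit ratio was 0.352, 0.197 and 0.274 in the uninduced and 0.921, 1.0 and 1.24 in the induced libraries, a 3.93-fold difference. In both pairs all induced libraries were above all uninduced ones (exact permutation p 0.1, adjusted 0.133 over 8 pairs).

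The groups were also apart for Tek to Kit (2.43-fold higher in induced cells), Flt3 to Kit (1.80-fold higher), Procr to Cd34 (1.56-fold higher) and Esam to Procr (2.00-fold lower), each with an exact permutation p of 0.1 and an adjusted p of 0.133. Slamf1 to Kit did not separate the groups, with a log2 difference of -0.055 (exact permutation p 1), nor did Cd27 to Cd34, at -0.39 (exact permutation p 0.4). The smallest ratio difference among pairs without overlap was thus for Procr and Cd34, whose means were both higher in induced cells. Pairs that share a gene are not independent of each other.

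**Figure D4:**
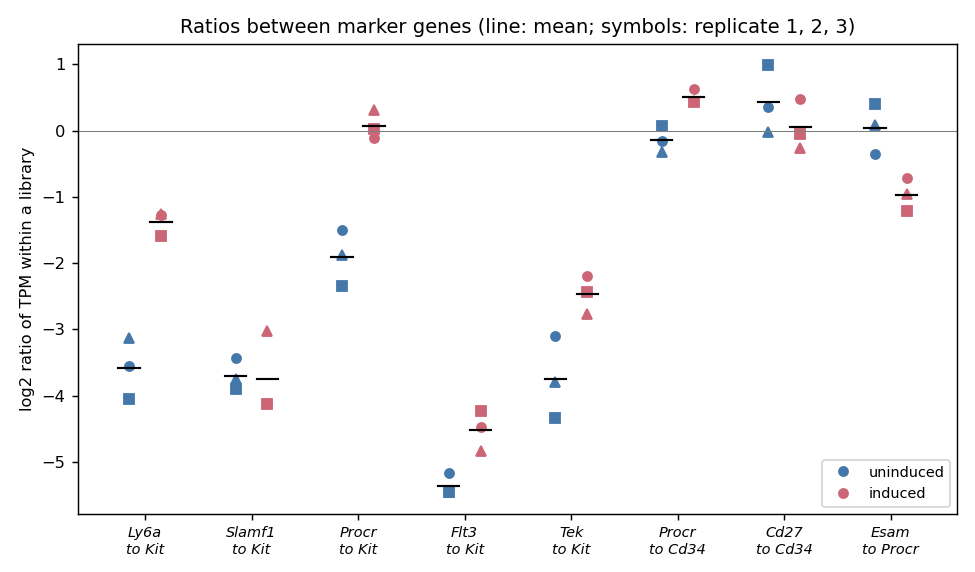
Log2 ratio of TPM between 2 marker genes within each library (vertical axis) for 8 pairs, uninduced in blue and induced in red, with the mean as a line. The groups are apart for 6 pairs and overlap for Slamf1 to Kit and Cd27 to Cd34.

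The genes most like each marker in their pattern over the 6 libraries were taken from 7758 other nuclear protein-coding genes whose mean reached 5 TPM, by Pearson correlation of log2(TPM + 1). These correlations are descriptions over 6 libraries, which share the difference between 2 groups. For Ly6a the closest were Pdzk1ip1 (r 0.990), Bcl3 (0.986) and Ccl9 (0.982). For Procr they were Gimap6 (0.994), Clec2d (0.991) and Phf1 (0.990), and for Kit Rab10 (0.995), Zmpste24 (0.995) and Gabpb2 (0.994).

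Many genes were about as close. The number with a correlation above 0.95 was 197 for Kit, 123 for Slamf1, 53 for Procr, 42 for Ly6a, 15 for Esam, 11 each for Cd34 and Cd27 and 1 for Tek. The closest genes were Prdx6 (0.995), H2bc4 (0.994) and Osbpl7 (0.992) for Slamf1, and Prkcd (0.990), Ctu2 (0.984) and Ms4a6b (0.975) for Cd34. For Cd27 they were Ppp3ca (0.987), Atp2b4 (0.982) and Mrpl16 (0.982), for Esam Kremen1 (0.983), Gltp (0.974) and Irak3 (0.972), and for Tek Serpina3g (0.959), Plxdc2 (0.949) and Jmjd1c (0.949). Flt3 was below the level used.

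The label of the cells was checked against markers outside the panel. The stem cell transcription factor genes Hlf and Mecom were at 64.3 to 146 TPM and 50.6 to 87.2 TPM over the 6 libraries, and Hlf rose on induction (log2 change 0.76, limma adjusted p 0.0294, and 1.16 after median-of-ratios scaling). Mecom had a log2 change of 0.41 (limma adjusted p 0.178) and passed after that scaling (0.81, limma adjusted p 0.0141). Fgd5 measured 33.2, 33.6 and 26.5 TPM without and 18.8, 15.1 and 29.5 TPM with induction, with overlapping groups, and its log2 change of -0.58 did not pass (limma adjusted p 0.191, and -0.19 after median-of-ratios scaling). Hoxb5 was low, at 0.036, 2.13 and 1.1 TPM without and 3.55, 3.95 and 3.81 TPM with induction, without overlap, and did not pass (limma adjusted p 0.0991). Of the 7 T and NK cell markers 5 were listed at 0 in every library, among them Cd3e, Cd3g and Cd8a. Cd4 and Klrb1c were at most at 0.881 and 0.775 TPM. Of the 4 B cell markers 3 were listed at 0 in every library, among them Cd79a and Ms4a1, and Cd79b was at 3.11 to 9.86 TPM.

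Other RNAs moved with the groups beside the markers. Summed over 5 erythroid markers, the level was 38.8 to 48.7 TPM without and 332 to 397 TPM with induction, and 4 of the 5 were called higher (1.29% of all tested genes). The globin genes Hbb-bs, Hba-a1 and Hbb-bt had log2 changes of 3.55, 2.93 and 2.44 (limma adjusted p 0.000255, 0.000834 and 0.000310), and since globin genes have near-identical copies their single values are uncertain.

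On the deposited scale the 6 myeloid markers summed to 56.1 to 73.8 TPM without and 35 to 50.8 TPM with induction. Of these 4 were tested and none was called (11.5% of all tested genes). The means of S100a8, Mpo and Elane were lower in induced cells. The Cd68 mean was higher (2.88 TPM without and 7.48 TPM with induction, limma adjusted p 0.294). After median-of-ratios scaling the log2 change of S100a8 was -0.16. The 4 B cell markers summed to 4.21 to 9.86 TPM without and 3.11 to 3.85 TPM with induction, all of it Cd79b. The groups overlapped for the 7 T and NK cell markers (0 to 1.39 TPM and 0.253 to 1.18 TPM), the 3 megakaryocyte markers (34.6 to 66.8 TPM and 54.8 to 74.5 TPM) and the 5 endothelial and stromal markers (0.903 to 2.44 TPM and 0.560 to 1.13 TPM). Of 5 cell cycle genes 4 were called lower (10.2% of all tested genes). The proliferation marker Mki67 measured 48.0, 53.2 and 48.6 TPM without and 6.11, 7.23 and 7.79 TPM with induction (log2 change -2.67, limma adjusted p 0.000255). Top2a, Mcm5 and Ccnb1, of chromosome separation, replication and entry into mitosis, had log2 changes of -2.78, -2.71 and -2.53. The part of any of these in the Kit, Ly6a and Procr differences was not tested.

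Of 25 other surface genes of stem cells 23 were tested, and 3 were called lower (10.2% of all tested genes) and 0 higher (1.29% of all), with a median log2 change of -0.057 beside -0.35 over all. At an unadjusted limma p under 0.05 there were 4 (27.9% of all). Adgrg1, the adhesion receptor GPR56, fell from 554 ± 55.5 to 336 ± 16.6 TPM (n = 3 per group, SD), with a log2 change of -0.72 (limma adjusted p 0.0102) that did not pass after median-of-ratios scaling (-0.31, limma adjusted p 0.0807). The call was also lost without the variance trend and without induced replicate 2 (limma adjusted p 0.0984 and 0.0507), where the change was about as large (-0.72 and -0.69).

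Neo1, the netrin receptor neogenin, measured 3.29, 2.93 and 3.70 TPM without induction and 0.870, 0.575 and 0.476 TPM with it, a log2 change of -1.40 (limma adjusted p 0.0492). Its call was lost whichever library was left out, although the change then was still -1.49 to -1.32. After median-of-ratios scaling 2 genes of this list were called higher (2.88% of all tested genes) and 1 lower (3.1% of all). The higher ones, Itga6, an integrin subunit, and Ptprc, the common leukocyte phosphatase CD45, had log2 changes of 0.69 and 0.72 there (limma adjusted p 0.0442 and 0.0348), and 0.29 and 0.32 on the deposited scale.

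Of 21 surface genes of committed progenitors 10 were tested and 0 were called by limma (11.5% of all tested genes), with 4 at an unadjusted p under 0.05 (27.9% of all) and a median log2 change of -0.19. The interleukin-7 receptor gene Il7r and Fcer1a, Ccr9, Cd7 and Ly6d were listed at 0 in all 6 libraries. After median-of-ratios scaling 3 were called higher (2.88% of all tested genes). They were the growth factor receptor genes Csf2rb (log2 change 1.23, limma adjusted p 0.0406) and Csf3r (0.94, limma adjusted p 0.0175) and the anchored protein gene Cd24a (0.63, limma adjusted p 0.0247).

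Of 21 family members found 6 were tested, 1 was called lower (10.2% of all tested genes) and 0 higher (1.29% of all). The SLAM family gene Ly9 measured 7.88, 4.19 and 4.27 TPM without induction and 0, 0.377 and 0 TPM with it (limma adjusted p 0.00720), and passed in all 15 alternatives in which it was tested. Cd84, a neighbour in the same family, had a log2 change of 0.26 (limma adjusted p 0.518) and of 0.65 after median-of-ratios scaling (limma adjusted p 0.127), and the CD48 receptor gene Cd244a stayed at or under 0.818 TPM. Tie1, the kinase partner of TIE2, was at 38.7 to 57.0 TPM in uninduced and 37.7 to 51.5 TPM in induced cells, a log2 change of -0.057 (limma adjusted p 0.890) that became 0.34 after median-of-ratios scaling. Ly6e was at 31.0 to 86.7 TPM and 47.7 to 87.5 TPM (limma adjusted p 0.747).

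The ligands of the receptors differed in level. Kitl, Cd70 and Angpt2 were listed at 0 in all 6 libraries. Flt3l measured 13.4, 9.46 and 6.80 TPM without induction and 7.56, 5.82 and 5.39 TPM with it (log2 change -0.55, limma adjusted p 0.299, and -0.19 after median-of-ratios scaling). Angpt1, the ligand of TIE2, measured 138, 160 and 129 TPM without induction and 104, 96.1 and 114 TPM with it. Its groups did not overlap, and the log2 change of -0.44 did not pass (limma adjusted p 0.106) and was -0.031 after median-of-ratios scaling.

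Of 32 ligand and signalling genes found, 23 were tested, 1 was called higher (1.29% of all tested genes) and 1 lower (10.2% of all), with a median log2 change of -0.11. Socs2, an inhibitor of cytokine signalling, rose from 24.6 ± 9.53 to 55.8 ± 10.2 TPM (n = 3 per group, SD), with a log2 change of 1.2 (limma adjusted p 0.0277) whose call was lost on leaving out any 1 library other than uninduced replicate 3. Siva1, which encodes a protein that binds the tail of CD27, fell from 66.6 ± 7.34 to 28.2 ± 1.72 TPM (n = 3 per group, SD), with a log2 change of -1.21 (limma adjusted p 0.00460) that passed in all 16 alternatives. Pik3r1, a phosphoinositide kinase subunit, was called higher after median-of-ratios scaling alone of these 2 scales (0.77, limma adjusted p 0.0213).

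**Figure D5:**
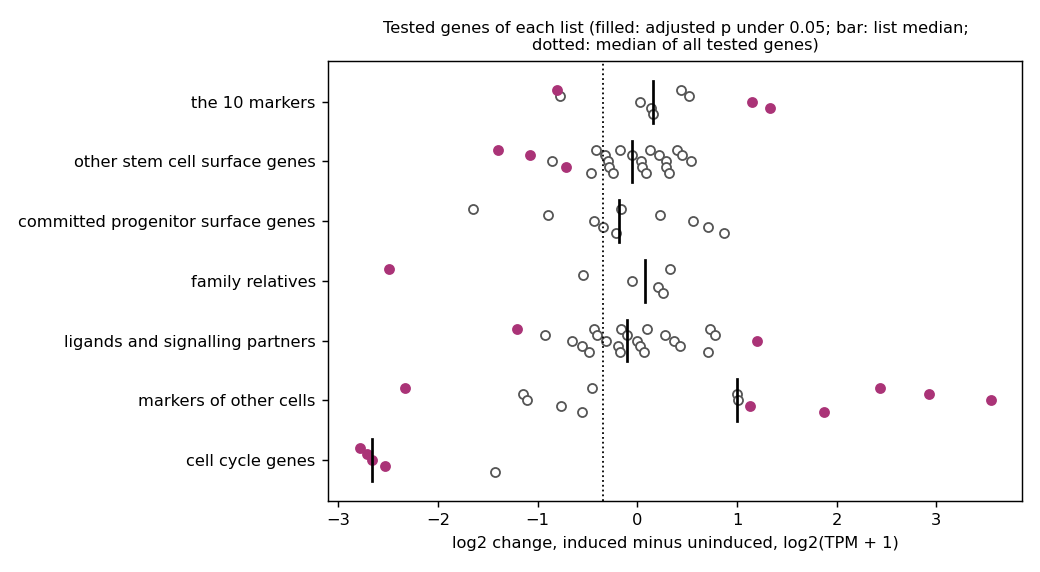
Log2 change (induced minus uninduced, log2(TPM + 1), horizontal axis) of every tested gene of the marker panel and of 6 lists of related genes, with genes past an adjusted p of 0.05 filled, the list median as a bar and the median of all tested genes (-0.35) dotted. The cell cycle genes lie far to the left (median -2.67) and the erythroid genes, among the markers of other cells, to the right.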

How the data were processed

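Stranded total-RNA libraries were made from very little RNA, per the labels' protocols. The authors deposited 1 table of TPM per gene, with a column per library. The submitters' processing notes name bcl2fastq, HISAT2, StringTie, DESeq2 and the build GRCm38, without versions or steps. The deposited table also gives GC content in percent, which was not used. Rows were summed per gene ID (60496 rows, 55471 IDs). A mean of 1 TPM was required for testing. The test was limma (version 3.58.1, R 4.3.3) on log2(TPM + 1) with a variance trend, two-sided, with Benjamini-Hochberg adjustment over 13470 genes. This scale understates the change of low genes. Depth is unknown, so no counting interval is given. The fit was tested on simulated data, where it missed most changes of the smaller size simulated, and false calls exceeded the threshold under 1 of 2 ways of drawing the variances. A marker that did not pass is therefore not shown to be unchanged.

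The 10 markers and the lists of related genes, written from general knowledge, were chosen with earlier results of these data known. Named genes were the markers, Mki67, up to 4 called genes per list and direction, and ligands or relatives with a direct link (Cd244 is Cd244a in the table). For each marker with a mean of at least 5 TPM the 3 most correlated genes were taken. Cd84, Hlf, Mecom, Hoxb5, Eng, Fgd5 and the genes called only after scaling were named after their values were seen. Some genes of the lists are counted but not reported here by name. Gene positions are from GENCODE M21 and promoter stretches from RefSeq (GRCm38.p6). Alternatives were 2 other pseudocounts, 2 other filters, 3 other scalings, library weights, a fit without the trend, the replicate number as a block, and each library left out.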

Additional observations from a re-analysis of the deposited data

How the results depend on the processing

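Excluding the fits without single libraries, the markers stayed on the same side of the threshold in 80 fits, lost the call in 6 (all Kit) and gained it in 3 (all Cd34), and 0 changed sign. Without the filter, without the trend and with the block the Kit change itself was the same and its adjusted p alone moved. The 3 calls (Kit, Ly6a and Procr) became Ly6a and Procr without the filter, without the variance trend and with the replicate block, where Kit had an adjusted p of 0.0643, and 2 to 3 without single libraries. With 3 libraries in each group the block cannot move a fitted change. Deviations of same-numbered libraries from their group means correlated at 0.021, -0.015 and 0.017, so the numbers were not taken as pairs. All called genes numbered 1549, and 752 without the filter, 806, 814 and 886 under median-of-ratios, quantile and protein-coding scaling, 767 without the trend, 902 with the block and 611 to 1276 without single libraries.

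Without single libraries the change of Flt3 ran from -0.10 to 0.18 and that of Cd27 from -0.096 to 0.32. Slamf1 to Kit was 0.029 with a pseudocount of 1 and -0.42 to 0.13 without single libraries. Tie1 was 0.34 under median-of-ratios and quantile scaling (0.335 in the latter) and 0.38 under protein-coding scaling, and ran from -0.18 to 0.11 without single libraries (0.11 without uninduced replicate 2, 0.040 without induced replicate 1). Ly6e ran from -0.22 (without uninduced replicate 3) to 0.51. The calls in ligand and signalling genes (2) were 1 without the filter or the trend, 4 under protein-coding scaling and 1 to 2 without single libraries. In markers of other cells 6 became 3 without the filter and 4 to 6 without single libraries. In family relatives 1 became 0 at a mean of at least 5 TPM, which removes Ly9. In progenitor genes 0 became 3 under each of the 3 scalings and 0 to 1 without single libraries. In the other stem cell genes 3 became 1 to 3 without single libraries. The scalings moved the median of all genes, and for the other shifts the cause was not tested. Unknown depth limits what can be said of Cd48 and other genes near 0.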

Other observations

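The induced libraries were not alike in every stem cell gene. Slamf1 was at 5.98 and 5.31 TPM in induced replicates 1 and 2 and at 11.3 TPM in replicate 3. Fgd5, a guanine nucleotide exchange factor gene used to mark stem cells, was at 18.8 and 15.1 TPM in those replicates and at 29.5 TPM in replicate 3, and Eng, the TGF-beta co-receptor endoglin, was at 41.3, 41.3 and 58.9 TPM. For all 3 genes induced replicate 3 lay within the range of the uninduced libraries and the other two below it. Kit, at 103, 92.3 and 91.6 TPM, and Procr, at 95, 93.6 and 113 TPM, did not set replicate 3 apart in this way. These genes were picked after their values were seen.

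The platelet genes Pf4 and Gp9 went opposite ways. Pf4, a platelet chemokine gene, rose from 28.4 ± 11.2 to 60.7 ± 8.62 TPM (n = 3 per group, SD; limma adjusted p 0.0253), and its call was lost on leaving out any 1 library other than uninduced replicate 2. Gp9, a subunit of the platelet receptor for von Willebrand factor, fell from 16.7 ± 6.34 to 2.96 ± 2.51 TPM (n = 3 per group, SD; limma adjusted p 0.0187), and its call was lost without uninduced replicate 2 and under median-of-ratios scaling (limma adjusted p 0.0625), among other settings.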
